A study of Mus musculus with 8 samples.

Results

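The 10 tudor-domain genes Tdrd1, Tdrd3, Tdrd5, Tdrd6, Tdrd7, Tdrd9, Tdrd12, Tdrkh, Rnf17 and Stk31 were taken by symbol from a table of 55487 mouse genes, and all 10 were found. RNA was measured in germ cells sorted from fetal testes of C57BL/6 mice, in 4 libraries from Rhox10-null animals (labelled KO) and 4 from littermate controls (labelled WT). All animals of both groups were Oct4-eGFP+/+, a green fluorescent reporter of germ cells driven by sequences of Oct4 (Pou5f1), a pluripotency gene. The fetal age, and whether each library came from a separate animal, were not given, so p-values measure the spread between these libraries, which may be technical. Libraries held 16346977 to 20311338 counts.

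Tudor domains bind methylated arginines, such as those in the tails of PIWI proteins. PIWI proteins carry piRNAs, small RNAs that direct the cutting of retrotransposon transcripts and, in the nucleus of fetal male germ cells, the DNA methylation of retrotransposons such as LINE1. Many tudor-domain proteins are scaffolds of the cytoplasmic granules (intermitochondrial cement, piP-bodies, chromatoid body) in which piRNAs are made, and the loss of several of them in mice causes male sterility. TDRD3 is a broadly expressed reader of arginine methylation that acts with a topoisomerase.

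Levels are CPM, read counts divided by the library size, after TMM (trimmed mean of M-values) scaling between libraries, and fold changes are KO over WT on the log2 scale. Adjusted p-values are from edgeR's quasi-likelihood test over all 23190 genes tested, and a gene was called at an adjusted p under 0.05. Rhox10, the X-linked homeobox gene of the genotype, had 18, 25, 19 and 17 counts in WT replicates 1 to 4 and 14, 10, 18 and 22 in KO replicates 1 to 4 (log2 fold change -0.28, adjusted p = 0.767). The groups overlapped, so these counts neither separate the genotypes nor check the labels, and the part of the gene that the null allele lacks is not given in the sources used here.

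The labelled cell type was set against markers of germ cells and of other cells of the fetal testis. Germ-cell genes were read: Ddx4, the gene of the germ-cell helicase VASA, had a level per exon length of 14.8 CPM per kb in WT and 14.4 in KO. Nanos2, a gene of fetal male germ cells, was near 0, at 0.268 and 0.339 CPM per kb. Some genes of steroid-making Leydig cells and other interstitial cells were far higher per length. Cyp17a1 was at 474 and 430 CPM per kb and Col1a1 at 451 and 442. The Sertoli cell gene Amh was also higher, at 84.5 and 84.02 CPM per kb. The lowest marker of each of these 2 lists was not far higher. Insl3 of Leydig cells was only a little above Ddx4, at 16.8 and 17.2 CPM per kb. Fgf9 of Sertoli cells was below Ddx4, at 0.815 and 0.802. The libraries therefore held much RNA of genes known from somatic cells, and in such bulk samples fewer germ cells and less RNA per germ cell cannot be told apart. The summed levels of the marker lists, except that of germ cells, also moved with the genotype label. Summed over 10 germ-cell markers the level was 125 to 136 CPM in WT and 132 to 140 in KO, with overlap. Of its 9 tested members 5 had a log2 fold change above 0 and 4 below. The calls were 2 of 9 higher (Dazl and Dppa3) and 0 lower. Summed over 8 Leydig and interstitial markers it was 6458 to 6565 and 6095 to 6221 CPM (5 of 8 lower), and over 7 Sertoli markers 319 to 331 and 295 to 303 CPM (2 of 7 lower). Blood markers summed to 168 to 177 and 78.0 to 81.7 CPM (3 of 8 tested lower), endothelial markers to 167 to 183 and 191 to 197 CPM (2 of 6 higher) and epithelial markers to 47.7 to 51.2 and 94.7 to 107 CPM (10 of 10 higher). Beside these counts, 2.80% of all genes tested were called lower and 2.35% higher. No marker of the 6 lists was at 0 in all libraries. The part of these other cells in the results below was not tested beyond the alternatives given.

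Of the 10 tudor-domain genes, Tdrd1 fell and Tdrd12 rose in the KO libraries, and 8 did not pass the test. The 2 calls in 10 stand beside 5.14% of all genes tested (2.80% lower and 2.35% higher). The WT and KO libraries did not overlap for 4 members, Tdrd1, Tdrd9 and Stk31 on the lower side and Tdrd12 on the higher, where this held for 9.44% of all genes tested (4.72% lower and 4.72% higher). The median log2 fold change was -0.03 over the members and 0.002 over all genes tested, with 5 members above 0 and 5 below. Other scalings changed the split of members called. Library totals alone gave 1 higher and 3 lower, and libraries scaled to the summed germ-cell markers gave 0 higher and 3 lower. Over all genes the split was 544 higher and 649 lower, against 426 and 836 with library totals and 231 and 1037 with the germ-cell markers. The last scaling moved the median log2 fold change over all genes to -0.062. Its markers include Dazl and Dppa3, which were called higher. They also include Ddx4 and Mael, which are counted again among the other piRNA pathway genes below.

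**Figure D1:**
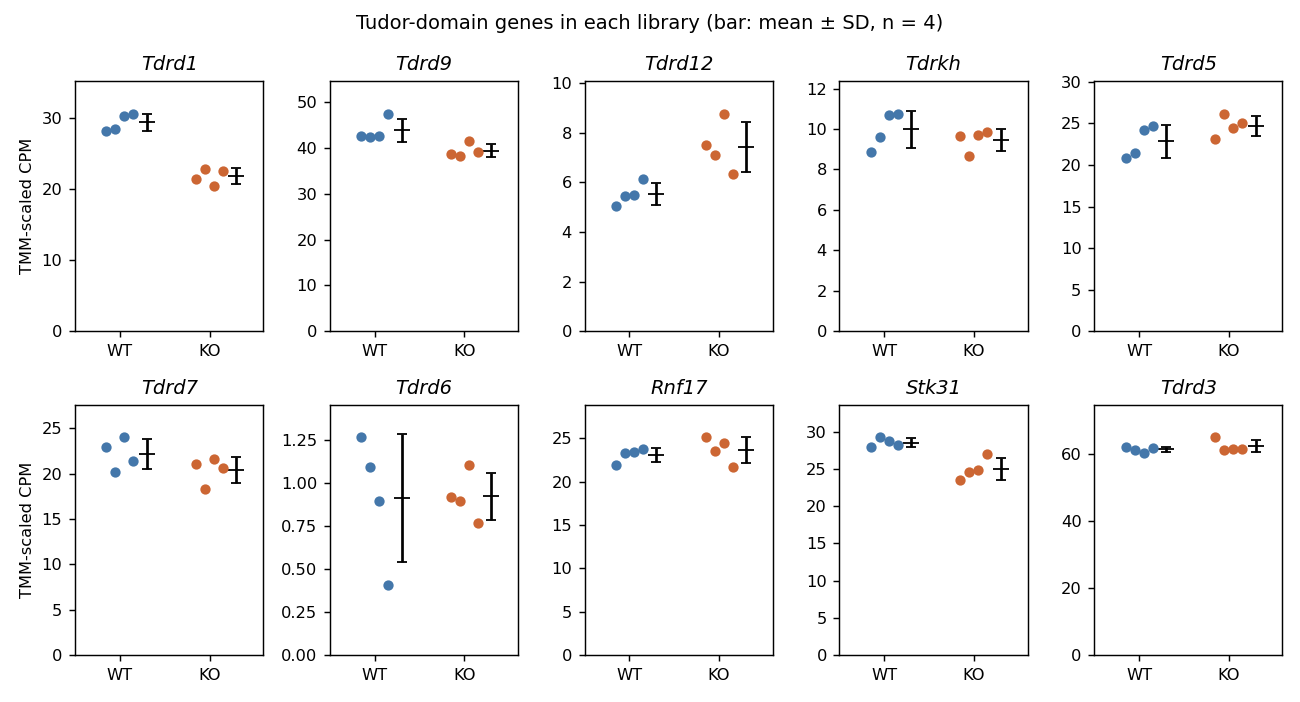
Level of each tudor-domain gene (TMM-scaled CPM, vertical axis from 0) in the 4 WT (blue) and 4 KO (orange) libraries, one point per library, with the mean and SD of each group as a bar. The points of the groups do not overlap for Tdrd1, Tdrd9, Tdrd12 and Stk31.

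The promoters of these 4 genes are shown because their groups did not overlap. Each is the 250 bases before the RefSeq start site (GRCm38.p6) nearest the gene's 5′ end in the count table, 5′ to 3′ on the gene's strand. Capitals mark matches, on either strand, to CACGTG (an E-box), GCGGGAA (a core of E2F sites) or AACGG (a core of MYB sites), 3 motifs that do not contain each other. They were chosen after promoters had been seen.
Tdrd1 (chr19:56825959-56826208, plus strand): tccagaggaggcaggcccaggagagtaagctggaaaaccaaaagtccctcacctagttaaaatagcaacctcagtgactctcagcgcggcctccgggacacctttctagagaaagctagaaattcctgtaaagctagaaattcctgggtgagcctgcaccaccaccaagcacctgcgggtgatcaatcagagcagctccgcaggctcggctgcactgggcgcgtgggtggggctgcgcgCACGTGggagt
Tdrd9 (chr12:111971309-111971558, plus strand): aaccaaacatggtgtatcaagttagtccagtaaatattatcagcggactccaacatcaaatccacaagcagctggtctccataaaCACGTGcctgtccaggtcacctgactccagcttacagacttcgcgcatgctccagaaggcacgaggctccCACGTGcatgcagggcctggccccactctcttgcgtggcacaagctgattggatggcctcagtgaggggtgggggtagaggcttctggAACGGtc
Stk31 (chr6:49395354-49395603, plus strand): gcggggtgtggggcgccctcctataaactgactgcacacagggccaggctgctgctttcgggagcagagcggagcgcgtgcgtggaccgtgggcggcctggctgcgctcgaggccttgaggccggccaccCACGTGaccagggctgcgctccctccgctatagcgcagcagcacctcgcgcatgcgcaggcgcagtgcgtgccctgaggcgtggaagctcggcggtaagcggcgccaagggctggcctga
Tdrd12 (chr7:35537745-35537994, minus strand): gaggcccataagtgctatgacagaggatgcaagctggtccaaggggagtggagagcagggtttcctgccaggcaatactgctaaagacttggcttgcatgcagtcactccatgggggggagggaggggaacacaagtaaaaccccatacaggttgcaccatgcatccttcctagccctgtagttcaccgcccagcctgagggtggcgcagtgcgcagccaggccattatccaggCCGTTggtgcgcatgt
The promoters of Tdrd1 and Stk31 each held 1 CACGTG and that of Tdrd9 held 2, while these letters were not in the Tdrd12 window. Both the genes and the motifs were picked after values or sequences had been seen. This split of the 4 genes is therefore only a description, and a link to the direction of change was not tested. Over 32817 promoter windows of the same length, 6.02% held CACGTG, 3.82% GCGGGAA and 14.5% AACGG. The windows of Tdrd9 and Tdrd12 each held 1 match to the last of these. Of the 10 members 8 had a RefSeq window: the windows of Tdrd3, Tdrd7 and Tdrkh held none of the 3 motifs, and that of Tdrd5 held 1 GCGGGAA and 1 AACGG. The start site used for Tdrd5 lay 316 bases from the gene's 5′ end in the count table. The number of CG pairs was 11 in the window of Tdrd1, 8 in that of Tdrd9, 26 in that of Stk31 and 5 in that of Tdrd12, with a median of 6 over all windows.

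Tdrd1 encodes a scaffold of the intermitochondrial cement that binds the PIWI protein MILI, the product of Piwil2. The gene (ENSMUSG00000025081) lies on the plus strand of chromosome 19 from 56826209 to 56870012 (GRCm38) and shares no exon base with another gene of the table. Its level was 28.2, 28.4, 30.2 and 30.6 CPM in WT replicates 1 to 4 and 21.4, 22.8, 20.5 and 22.6 CPM in KO replicates 1 to 4. Every KO library was below every WT library. The means were 29.4 ± 1.23 and 21.8 ± 1.08 CPM (SD, n = 4), a difference of 25.7% (log2 fold change -0.43, standard error 0.06, edgeR adjusted p = 3.27e-08). Tdrd1 was called in 19 of 20 alternatives, with log2 fold changes from -0.49 to -0.24. The exception was the fit that took the average somatic and blood marker level as a covariate (-0.24, adjusted p = 0.852).

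That covariate did not overlap between the groups either, at 4.44 to 4.52 in WT and 4.60 to 4.64 in KO (mean log2 CPM of 39 markers), and with it the standard errors of all genes grew by a median factor of 2.92. In that fit 32 genes of the whole table were called. The covariate averaged the Sertoli, Leydig and interstitial, endothelial, blood and epithelial markers together. The summed endothelial and epithelial markers were higher in KO and the other 3 sums lower, so it is not a measure of total somatic and blood RNA. Its correlation with genotype was 0.939 over the 8 libraries, so the fit could not separate the covariate from the genotype.

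Tdrd9, which encodes an RNA helicase that partners the nuclear PIWI protein MIWI2 (the product of Piwil4) in piP-bodies, was close to the threshold. The gene (ENSMUSG00000054003) lies on the plus strand of chromosome 12 from 111971559 to 112068854. Its level was 42.7, 42.5, 42.7 and 47.5 CPM in the WT libraries and 38.8, 38.3, 41.5 and 39.3 CPM in the KO libraries. The groups did not overlap, though the highest KO library lay close below 3 of the WT libraries. The log2 fold change was -0.15, with a 95% interval of -0.25 to -0.05 (adjusted p = 0.0652). It was called with library totals alone (-0.17, adjusted p = 0.0326) and with germ-cell scaling (-0.21, adjusted p = 0.0187). Without WT replicate 4, the library at 47.5 CPM, the value was -0.11 (adjusted p = 0.320).

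Tdrd12 encodes another helicase of the tudor family, needed for the loading of MIWI2 with piRNAs. The gene (ENSMUSG00000030491) lies on the minus strand of chromosome 7 from 35469098 to 35537745. Its level was 5.06, 5.45, 5.47 and 6.13 CPM in the WT libraries and 7.52, 7.11, 8.77 and 6.35 CPM in the KO libraries, from 84 to 167 counts a library. The lowest KO library, replicate 4, was just above the highest WT library, and KO replicate 3 was the highest of the 8. The means were 5.53 ± 0.445 and 7.44 ± 1.01 CPM (SD, n = 4), a rise of 34.5% (log2 fold change 0.43, standard error 0.13, edgeR adjusted p = 0.0201). The direction held in 20 of 20 alternatives, with values from 0.33 to 0.50, and the call in 12. It was lost with DESeq2 (adjusted p = 0.101), limma voom (0.0600), germ-cell scaling (0.37, 0.0724) and the covariate (0.40, 0.897). It was also lost without WT replicate 1 (adjusted p = 0.0753), 2 (0.0531) or 3 (0.0531) and without KO replicate 3 (0.33, 0.197).

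The opposite shifts of Tdrd1 and Tdrd12 were compared within each library, where scaling between libraries plays no part. For every 100 counts of Tdrd1 there were 17.9, 19.2, 18.1 and 20.04 counts of Tdrd12 in WT replicates 1 to 4, and 35.1, 31.2, 42.8 and 28.1 in KO replicates 1 to 4. The KO libraries were all above the WT libraries and spread more widely. The log2 ratio of the counts was -2.41 ± 0.0737 in WT and -1.56 ± 0.259 in KO (SD, n = 4), a difference of 0.85 (exact two-sided permutation test over 70 splits, p = 0.0286, the smallest it can give). This pair was taken with the fold changes of both genes known, so the p-value is not independent support. The groups already stood apart for both genes, in opposite directions. Their ratio therefore had to separate the groups, and the p-value was fixed in advance. Without each library in turn the difference was 0.74 to 0.94.

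**Figure D2:**
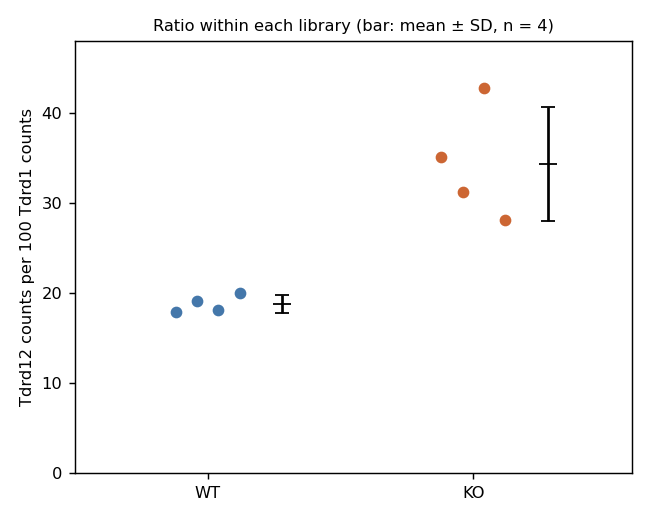
Counts of Tdrd12 per 100 counts of Tdrd1 within each library (vertical axis from 0) for WT (blue) and KO (orange), one point per library, with the mean and SD as a bar. WT libraries lie between 17.9 and 20.04 and KO libraries between 28.1 and 42.8.

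Tdrkh encodes a mitochondrial tudor protein that tethers PIWI proteins and the trimming enzyme of piRNA ends. It had 8.85, 9.61, 10.7 and 10.8 CPM in the WT libraries and 9.66, 8.66, 9.71 and 9.84 CPM in the KO libraries, so the groups overlapped. The log2 fold change was -0.07 (95% interval -0.28 to 0.13, adjusted p = 0.817). The gene (ENSMUSG00000041912, chromosome 3, 94413273 to 94434668, plus strand) shares 36.7% of its exon bases with Oaz3, on the other strand. Whether strand was used in counting is not given in the sources used here. Oaz3 itself had 3 to 23 counts a library, against 145 to 203 for Tdrkh.

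Tdrd5 and Tdrd7 encode granule proteins that carry RNA-binding LOTUS domains beside their tudor domains, and both act in the assembly of the chromatoid body. Tdrd5 (ENSMUSG00000060985, chromosome 1, 156255296 to 156303664, minus strand) had 20.9, 21.5, 24.3 and 24.7 CPM in WT and 23.2, 26.2, 24.4 and 25.01 CPM in KO. Tdrd7 (ENSMUSG00000035517, chromosome 4, 45965334 to 46034761, plus strand) had 22.9, 20.2, 24.0 and 21.4 CPM in WT and 21.03, 18.3, 21.6 and 20.6 CPM in KO. Both genes overlapped between the groups. The log2 fold change of Tdrd5 was 0.11 (95% interval -0.02 to 0.25, adjusted p = 0.429) and that of Tdrd7 was -0.11 (95% interval -0.25 to 0.02, adjusted p = 0.457).

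Tdrd6, Rnf17 and Stk31 are known mainly from later male germ cells. Tdrd6, a scaffold of the chromatoid body of spermatids, was barely read, with 21, 22, 17 and 7 counts in WT and 15, 15, 21 and 15 in KO (0.913 ± 0.371 and 0.921 ± 0.138 CPM; SD, n = 4). Its log2 fold change of 0.01 has a 95% interval of -0.64 to 0.66, which does not exclude a change of 1.5-fold in either direction. The gene (ENSMUSG00000040140) lies on chromosome 17 from 43615335 to 43630299, minus strand. Rnf17, whose product limits piRNA amplification in meiotic cells, had 21.9, 23.3, 23.4 and 23.8 CPM in WT and 25.1, 23.5, 24.5 and 21.7 CPM in KO. The lowest and the highest library of Rnf17 were both KO libraries (log2 fold change 0.03, 95% interval -0.10 to 0.17, adjusted p = 0.879). It lies on chromosome 14 from 56402581 to 56525032, plus strand (ENSMUSG00000000365).

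Stk31 encodes a protein with a tudor domain and a kinase-like domain that has been found with the PIWI protein MIWI. The gene (ENSMUSG00000023403) lies on the plus strand of chromosome 6 from 49395604 to 49469501. Its level was 27.9, 29.3, 28.8 and 28.3 CPM in the WT libraries and 23.5, 24.7, 24.8 and 27.01 CPM in the KO libraries. The groups did not overlap, and KO replicate 4 lay nearest the WT libraries. The means were 28.6 ± 0.595 and 25.02 ± 1.45 CPM (SD, n = 4; log2 fold change -0.19, 95% interval -0.31 to -0.07, edgeR adjusted p = 0.0513). Stk31 was called in 6 of 20 alternatives and had a value below 0 in all of them. Those calls came with DESeq2 size factors in edgeR (adjusted p = 0.0491), library totals (0.0278), germ-cell scaling (-0.25, 0.0134), a minimum of 1 CPM in 4 libraries (0.0459), protein-coding genes alone (0.0430) and without KO replicate 4 (-0.23, 0.0270).

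Tdrd3, which is broadly expressed, was the most abundant member. It had 61.9, 61.1, 60.3 and 61.8 CPM in WT and 64.9, 61.3, 61.3 and 61.5 CPM in KO, with a log2 fold change of 0.02 (95% interval -0.06 to 0.11, adjusted p = 0.882). The groups overlapped, and the interval of Tdrd3 was the narrowest of the 10. The gene (ENSMUSG00000022019) lies on chromosome 14 from 87416639 to 87545504, plus strand.

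**Figure D3:**
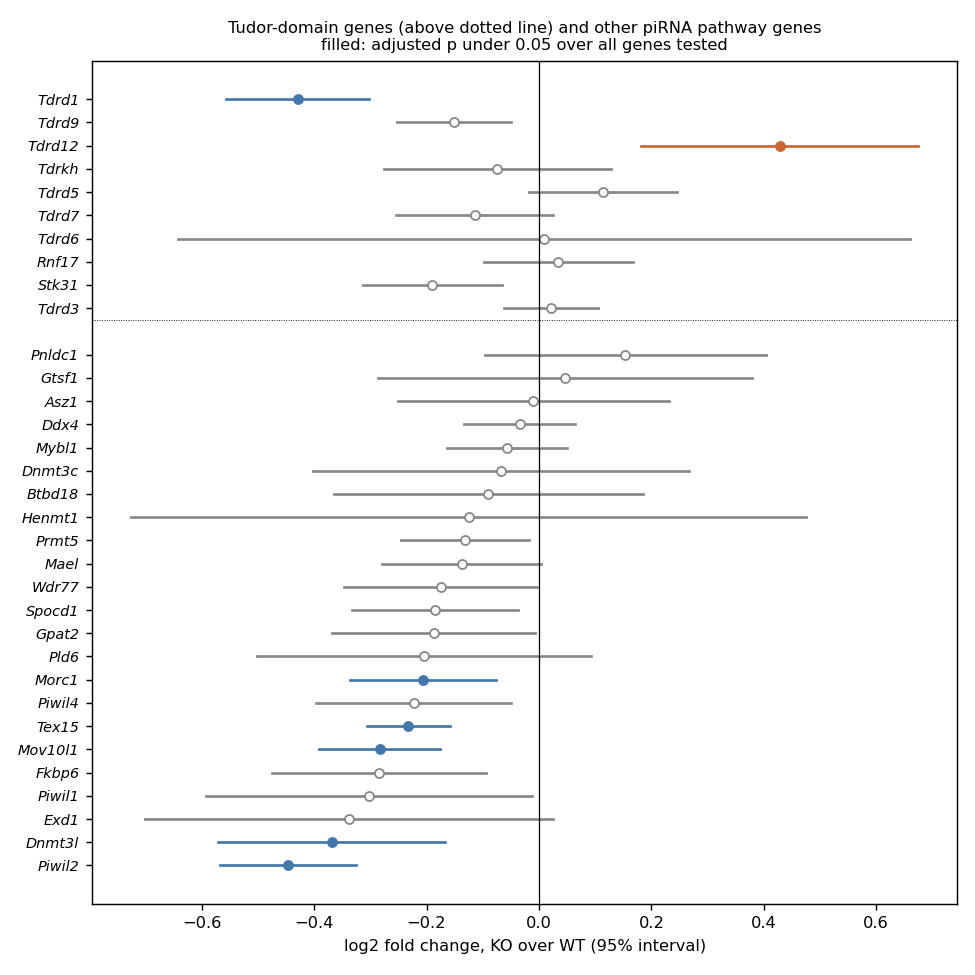
Log2 fold change, KO over WT, with its 95% interval for the 10 tudor-domain genes (above the dotted line) and the 23 other piRNA pathway genes tested. Filled points passed an adjusted p under 0.05: Tdrd1 and 5 other genes lower, Tdrd12 higher.

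Levels of different members were compared as TMM-scaled CPM per kb of exon. In WT the order from the highest was Tdrd3 at 10.1 ± 0.127, Stk31 at 8.83 ± 0.184, Tdrd9 at 8.10 ± 0.452, Tdrd7 at 5.59 ± 0.421, Tdrd1 at 5.39 ± 0.225, Rnf17 at 3.70 ± 0.131, Tdrd5 at 3.29 ± 0.279, Tdrkh at 1.62 ± 0.149, Tdrd12 at 1.27 ± 0.103 and Tdrd6 at 0.129 ± 0.0525 CPM per kb (SD, n = 4). The ranges of Stk31 and Tdrd9, of Tdrd7 and Tdrd1, and of Rnf17 and Tdrd5 overlapped, and those of the other neighbours did not. In KO, Tdrd1 stood at 4.01 ± 0.198 CPM per kb, apart from Tdrd7 (5.15 ± 0.363) and overlapping Rnf17 (3.80 ± 0.240). Tdrd12, at 1.71 ± 0.233, overlapped Tdrkh, at 1.54 ± 0.0882, where it had been below it in WT. As a share of the summed level per kb of the 10 genes, Tdrd1 made up 11.2 ± 0.202% in WT and 8.88 ± 0.540% in KO, and Tdrd12 2.65 ± 0.162% and 3.79 ± 0.485% (SD, n = 4). The 10 genes summed to 242 to 255 CPM in the WT libraries and 232 to 238 CPM in the KO libraries, with no overlap (means 248 and 235). The sum includes Tdrd1, with means of 29.4 and 21.8 CPM, and Tdrd9 and Stk31, whose groups also stood apart on the lower side. With 5 members above 0 and 5 below, the sum does not show a fall of the members as a set.

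**Figure D4:**
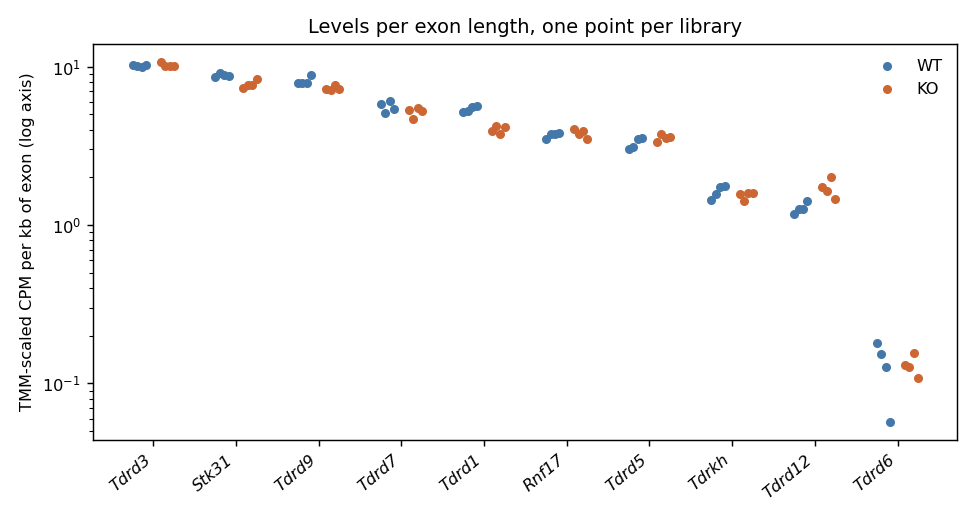
TMM-scaled CPM per kb of exon (log axis) of each tudor-domain gene, ordered by its WT mean, with one point per library for WT (blue) and KO (orange). Tdrd3 is highest at about 10 and Tdrd6 lowest, near 0.13, and Tdrd1 and Tdrd12 are displaced in opposite directions.

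The other genes of the piRNA pathway were counted in the same fit. Of 25 listed genes 23 were tested, of which 5 fell, 0 rose and 18 did not pass (edgeR), beside 2.80% of all genes tested called lower and 2.35% called higher. Of the 23, 12 had an unadjusted p under 0.05, all of them lower, beside 15.6% of all genes tested (8.07% lower and 7.53% higher). Without WT replicate 4 the number that fell was 3. DESeq2 and limma voom also called 0 of them higher. Their median log2 fold change was -0.18, with 21 genes below 0 and 2 above. For 6 of the 23 the groups stood apart, 5 of them lower, beside 9.44% of all genes tested (4.72% in each direction). The list includes genes picked with earlier results of these libraries known, so its direction is not independent evidence.

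Among the PIWI genes, Piwil2, whose product is the partner of TDRD1, had 33.2, 29.6, 34.3 and 36.1 CPM in WT and 26.4, 23.5, 22.4 and 25.5 CPM in KO. No KO library reached a WT library (log2 fold change -0.45, edgeR adjusted p = 1.21e-09). Piwil4, which encodes the partner of TDRD9, had 15.5, 15.6, 12.5 and 14.5 CPM in WT and 13.1, 13.1, 12.3 and 11.3 CPM in KO, with overlap (-0.22, adjusted p = 0.141). Piwil1, a PIWI gene known from later stages, was at 5.11 ± 0.858 and 4.13 ± 0.253 CPM (SD, n = 4; -0.30, edgeR adjusted p = 0.291).

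Of the biogenesis genes, the helicase gene Mov10l1 fell from 40.5 ± 2.59 to 33.2 ± 1.31 CPM (SD, n = 4; -0.28, edgeR adjusted p = 3.98e-05), while Ddx4 was at 44.5 ± 3.40 and 43.4 ± 0.971 CPM (-0.03, adjusted p = 0.83). Of the silencing genes, Tex15, which acts with MIWI2 in the nucleus, fell by 0.23 (adjusted p = 2.63e-07). Dnmt3l, whose product assists the de novo DNA methyltransferases, fell too (log2 fold change -0.37, adjusted p = 0.0125), and Morc1, a gene of retrotransposon silencing, fell by 0.21 (adjusted p = 0.0432). The call of Dnmt3l was lost with DESeq2 (adjusted p = 0.0501), without WT replicate 4 (0.0577) and without KO replicate 4 (0.0859). Morc1 was called in 8 of 20 alternatives and lost its call without WT replicate 1 (-0.16, adjusted p = 0.267), 3 (0.0691) or 4 (0.0789) and without KO replicate 1 (0.0713), 3 (0.133) or 4 (0.111). With the somatic and blood markers as a covariate none of the 5 was called, and Piwil2 stood at -0.20 (adjusted p = 0.879) and Mov10l1 at -0.08 (adjusted p = 0.965).

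Genes that encode tudor domains outside the piRNA pathway were counted for comparison, such as the spliceosome assembly gene Smn1 and the histone demethylase genes of the Kdm4 group. Of 21 tested, 1 rose, 0 fell and 20 did not pass (edgeR), a share close to the 5.14% of all genes tested that were called (2.35% higher). Of the 21, 6 had an unadjusted p under 0.05, all of them higher, beside 7.53% of all genes tested on the higher side. DESeq2 and limma voom also called 0 lower, and without WT replicate 2 none rose. Their median log2 fold change was 0.03. The riser was Setdb1, which encodes an H3K9 methyltransferase, at 89.4 ± 2.93 and 97.9 ± 2.54 CPM (SD, n = 4; 0.13, edgeR adjusted p = 0.00889). The difference between the lists was not tested.

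**Figure D5:**
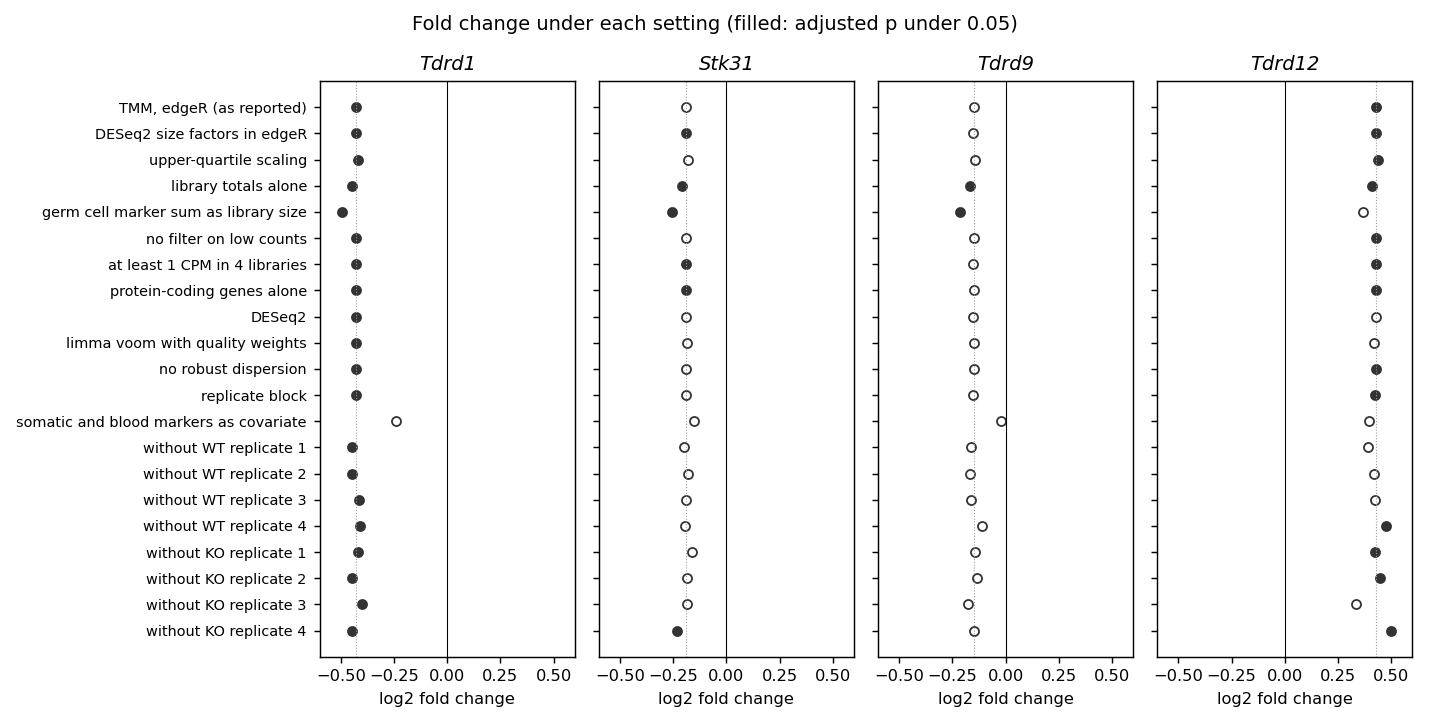
Log2 fold change, KO over WT (horizontal axis), of Tdrd1, Stk31, Tdrd9 and Tdrd12 under each setting (rows), filled where the adjusted p was under 0.05; the dotted line is the reported value. Tdrd1 is called in 19 of 20 alternatives, Tdrd12 in 12, Stk31 in 6 and Tdrd9 in 2, and none of the 4 changes side.

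The genes whose log2 CPM followed Tdrd1 and Tdrd12 most closely over the 8 libraries were sought among 9876 abundant protein-coding genes. For Tdrd1 they were Cpped1 (Pearson r = 0.982), Pgrmc1 (0.982) and Fth1 (0.981), with log2 fold changes of -0.17, -0.19 and -0.25. For Tdrd12 they were Actn1 (0.977), Usp9x (0.968) and Dmd (0.966), with log2 fold changes of 0.13, 0.05 and 0.11. These correlations are descriptions over 8 libraries that share the difference between the groups, and the best of so many genes will be high.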

How the data were processed

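Total RNA libraries were made with a stranded low-input kit, per the labels' protocols. The authors deposited 1 table of raw read counts per gene, with no normalization; the submitters' processing notes name GRCm38, STAR 2.5.2b, featureCounts, Subread and DESeq2, and settings are not given in the sources used here. Of 55487 gene IDs 55141 matched GENCODE M21 symbols, and 99.35% of those in its annotation had identical positions. Counts were tested in R 4.3.3 with edgeR 4.0.16: filterByExpr, TMM, robust quasi-likelihood test of KO against WT with no covariate, two-sided, Benjamini-Hochberg over all 23190 genes tested. Libraries held 16346977 to 20311338 counts; without molecular identifiers, reads cannot be taken as separate molecules. No 2 libraries of a group agreed within sampling noise (chi-squared per degree of freedom 1.68 to 3.60 over genes with a summed count of at least 20). The spread between libraries beyond that noise was small, with a common coefficient of variation of 3.865% in the edgeR fit. Whether it is biological or technical was not tested. Intervals are 95% intervals from the fit. CPM per kb divides by the table's exon length.

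Members and lists were chosen with earlier results of these data known. Named genes were all 10 members, Rhox10, 5 fixed piRNA genes and every other piRNA gene called, called tudor genes outside the pathway, markers, and the 3 genes most correlated with Tdrd1 and Tdrd12 (average log2 CPM of at least 3). In the list of tudor genes outside the pathway 21 of 22 symbols matched. Alternatives used DESeq2 1.42.0 and limma 3.58.1 and other scalings, filters, a covariate, a replicate block, other thresholds and each library left out. The fit was checked on simulated counts with 50 genes changed at each of 4 sizes. It called 12% of the genes changed 1.1-fold, 50% at 1.25-fold, 76% at 1.35-fold and 94% at 1.5-fold. Of its 119 calls 3 were unchanged genes. Small changes were thus often missed, and a gene that was not called may still have changed by a small amount.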

Additional observations from a re-analysis of the deposited data

Results flagged for a closer look

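Among 40 groups of 4 libraries checked for a library apart from the other 3 by Dixon's ratio, 5 had one; chance gives about 1 in 20. Tdrd3 was at 64.9 CPM in KO replicate 1, against 61.3 to 61.5 CPM in the other KO libraries. Tdrd9 was at 47.5 CPM in WT replicate 4, against 42.5 to 42.7 CPM. Tdrkh was at 8.66 CPM in KO replicate 2, against 9.66 to 9.84 CPM. Piwil1 was at 4.51 CPM in KO replicate 4, against 3.97 to 4.06 CPM. Tex15 was at 88.8 CPM in WT replicate 2, against 92.8 to 93.5 CPM.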

How the results depend on the processing

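The number of tudor-domain genes lower, 1 as reported, was 2 with DESeq2 size factors in edgeR, with a minimum of 1 CPM in 4 libraries and with protein-coding genes alone, 3 with library totals, germ-cell scaling or an adjusted p under 0.10, and 0 with the somatic covariate. It was 1 to 2 without each library. The number higher, 1 as reported, was 0 with germ-cell scaling, DESeq2, limma voom, the covariate and an adjusted p under 0.01, and 0 to 1 without each library. Other piRNA genes lower, 5 as reported, numbered 7 with germ-cell scaling, 6 with library totals, protein-coding genes alone, the replicate block and an adjusted p under 0.10, 5 with DESeq2 size factors in edgeR and the 1 CPM minimum, 4 with upper-quartile scaling, no filter, limma voom and no robust dispersion, 3 with DESeq2 and an adjusted p under 0.01, 0 with the covariate, and 3 to 6 without each library. Other tudor genes higher, 1 as reported, numbered 0 with germ-cell scaling and the covariate, and 0 to 1 without each library. Of all genes 1193 were called as reported, 544 higher and 649 lower. DESeq2 called 730 (355 and 375), the covariate 32 (13 and 19) and an adjusted p under 0.01 gave 678 (313 and 365); limma voom called 424 lower, and germ-cell scaling 231 higher and 1037 lower. Without each library the calls were 898 to 1040, with 390 to 490 higher and 501 to 550 lower. These causes were not tested, except that the covariate did not overlap between the groups and a lower threshold calls fewer genes by construction.

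With the replicate number as a block 1249 genes were called. Same-numbered libraries did not deviate together (correlations of -0.002 to 0.05 over 11531 genes), so the numbers are not taken as a pairing. The Tdrd12 to Tdrd1 log2 ratio taken within numbers, as a replicate block, was 0.85 (exact two-sided sign-flip p = 0.125, the smallest that 4 pairs allow). This p-value too was fixed in advance by the separation of the groups for both genes. Depth limits Tdrd6, at 7 to 22 counts a library.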
